A study of Anopheles gambiae with 18 samples.

Results

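The female Anopheles gambiae midgut was dissected into 4 compartments for microarray comparison, and the 3 arrays described here set the anterior-posterior compartment, which is the front of the posterior midgut, against the whole female midgut. The compartment was labelled with Cy5 and the whole midgut with Cy3, and a log2 ratio above 0 therefore means relatively more of a transcript in the compartment. All rows of the deposited value table were used, spots of a transcript were averaged, each array was centred on its own median, and the 13767 of 14197 transcripts on the array with a value on all 3 arrays were kept. Transcripts are named by the last digits of their Ensembl identifiers, as EN006721, with the homology text of the authors' supplement.

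The series held 18 arrays, with 3 for each of 6 comparisons. All mosquitoes were 4-day-old adults of the Keele strain kept on sucrose, and the females had taken no blood. The arrays used beside the anterior-posterior arrays were those of the anterior and of the posterior-posterior compartment, each with 3 arrays against the same reference tissue, and these females carried no treatment or transgene. The methods describe the replicate assays as biological. The reference contained the compartment itself, and no array had its dyes swapped, so that a dye effect and a tissue difference cannot be told apart.

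The posterior midgut of a female mosquito receives the blood meal. Its epithelium makes trypsins and carboxypeptidases that break down blood proteins, takes up the products, and is lined during digestion by the peritrophic matrix, a chitin and protein sheet. The same epithelium is the tissue that Plasmodium ookinetes cross, and it makes pattern recognition proteins and nitric oxide synthase.

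Relative to the whole midgut, transcripts for trypsins 3 and 4, a carboxypeptidase (EN021052), a peritrophin (EN023523), nitric oxide synthase and many ribosomal proteins were called higher in the anterior-posterior compartment. Trypsin 3 (EN006721) had a mean log2 ratio of 2.38 ± 0.25 (SD, n = 3 arrays) and nitric oxide synthase (EN019316) one of 2.25 ± 0.28. Before each array was centred on its median, these means were 0.52 and 0.39, so that their size depends on the centre. Antimicrobial peptides and lysozymes were not called, and no transcript was called between the compartment and either of its neighbours. These calls used the spread of 9 arrays, and none was made from the 3 arrays alone.

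The 3 arrays were not alike. Before centring, the median log2 ratio over transcripts was -2.35, -1.59 and -1.64 on replicates 1 to 3, and only 66 transcripts, 0.479% of those tested, had a ratio over 1 on all 3 arrays. Across the 13767 transcripts, replicates 1 and 2 correlated at 0.452, replicates 1 and 3 at 0.24 and replicates 2 and 3 at 0.283, and replicate 3 thus stood apart from the others. These values describe transcripts that share probes and arrays, and transcripts are not independent replicates. On replicate 2, 63.2% of the features had a ratio that small whole numbers give, as spots read at a few units of signal would. On replicates 1 and 3 it was 3.96% and 5.31%. Such a ratio, with a denominator up to 10 and within 0.00051, is called a few-unit ratio below. A ratio at a higher signal can match such a fraction too, so that a few-unit ratio alone does not show a faint spot. No intensities accompanied the ratios, so that neither a signal threshold nor a level of a transcript could be had, and fewer cells of a type cannot be told apart from less RNA per cell.

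The centre of an array decided much of what followed. The transcripts that the authors list for the male versus female assay had a median 1.31, 1.12 and 0.21 (log2) above that of all transcripts on replicates 1 to 3, and centring on that list moved every ratio down by these amounts. Of the tested transcripts, 2613 stood in the male versus female or the cardia versus posterior list, neither of which was drawn up on these 3 arrays. Their median ratio, centred on all transcripts, was 0.99, 0.77 and 0.14 on replicates 1 to 3, against -0.12, 0.00 and -0.03 for the 11154 unlisted transcripts. The listed transcripts were therefore displaced upward on replicates 1 and 2, and by less on replicate 3. Values below are log2 ratios centred on all transcripts unless stated otherwise. Values or counts centred on the sex list are added for many transcripts and lists, but not for every call that this centre changed. That centre moves a gene list and the annotated transcripts alike, but it turned the list medians below 0 except for exopeptidases, sugar digestion, aquaporins and carbonic anhydrases, V-ATPase, respiratory chain, ribosomal proteins, muscle and salivary gland, while lipase, neuronal and hemocyte medians were below 0 under both centres.

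**Figure D1:**
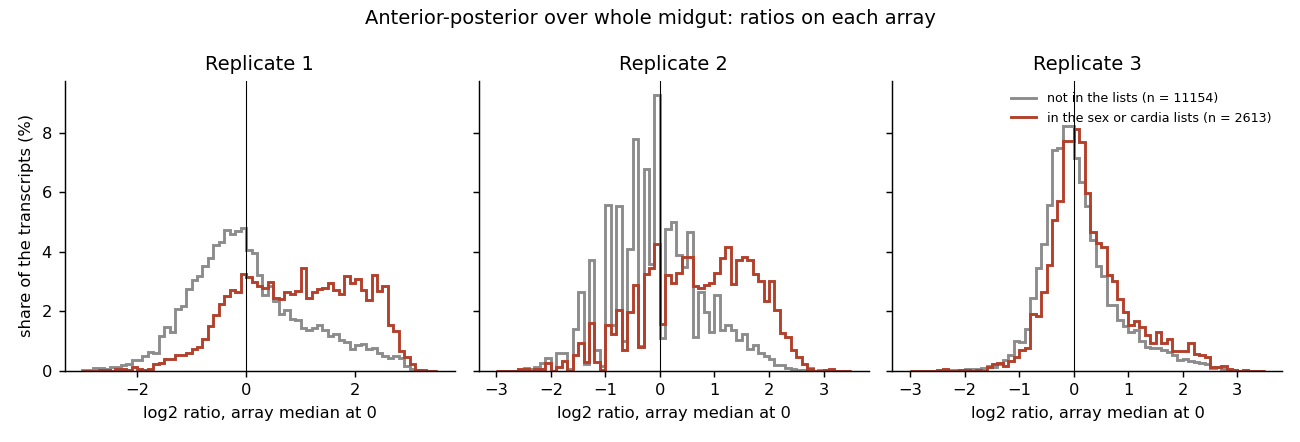
Distribution of centred log2 ratios on the 3 anterior-posterior arrays, as a share of the 2613 transcripts in the sex or cardia lists and of the 11154 others. The listed transcripts lie to the right of the others on replicates 1 and 2, with medians of 0.99 and 0.77, and nearly on top of them on replicate 3, with a median of 0.14.

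In the anterior-posterior compartment, 982 transcripts were called higher and 65 lower than in the whole midgut. A call needed a mean change of 2-fold or more and an adjusted p (Benjamini-Hochberg) below 0.05. The background was thus 7.13% of the tested transcripts called higher and 0.472% called lower. The calls came from limma on 9 arrays, in which the anterior and posterior-posterior arrays helped to estimate the spread of each transcript. Median SD over transcripts was 0.581 on the anterior-posterior arrays, against 0.416 on the anterior and 0.512 on the posterior-posterior arrays, so that the shared spread may make the p-values too small here. In data simulated with these spreads, in which 200 transcripts differed by 2 (log2), the fit recovered 94% of them and 20% of its calls were false, against 90.5% and 11.27% for the 3 arrays alone. The simulated noise was independent between transcripts and held no displacement of the listed transcripts. The simulated 3 arrays alone gave 204 calls, whereas the measured 3 arrays alone gave 0. These rates may therefore not hold for the 982 calls.

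With the spread of the 3 anterior-posterior arrays alone, limma called no transcript. The smallest adjusted p was then 0.068, and 1589 transcripts were higher and 249 lower by 2-fold at an unadjusted p under 0.05. The methods' t-test called 519 higher and 81 lower at its unadjusted threshold and none after Benjamini-Hochberg adjustment. Without replicate 3, the 8-array fit called 1716 higher and 269 lower, which is 12.5% and 1.95% of the tested transcripts. Leaving out replicate 1 gave 172 higher and 5 lower, and leaving out replicate 2 gave 500 and 14.

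The split of calls turned over with the centre. The calls were 93.8% higher with all transcripts as the centre and 4.52% higher with the sex list. Centred on the sex list, 170 transcripts were called higher and 3595 lower, or 1.23% and 26.1% of those tested. All 170 were among the 982, and all 65 lower transcripts were lower under both centres. As the sex list lowers every ratio, it sets a stricter bound for a rise and a looser one for a fall. A call under both centres is therefore not independent support. These 170 are referred to as higher under both centres. Of these, 120 were in the sex or cardia lists (70.6%, against 19% of all tested transcripts). A few-unit ratio in a spot on at least 1 array was found for 26 of the 170 (15.3%). Of the 65 lower transcripts, 62 (95.4%) had such a ratio, against 68% of all tested transcripts, and the other 3 stayed called when transcripts with such ratios were left out.

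**Figure D2:**
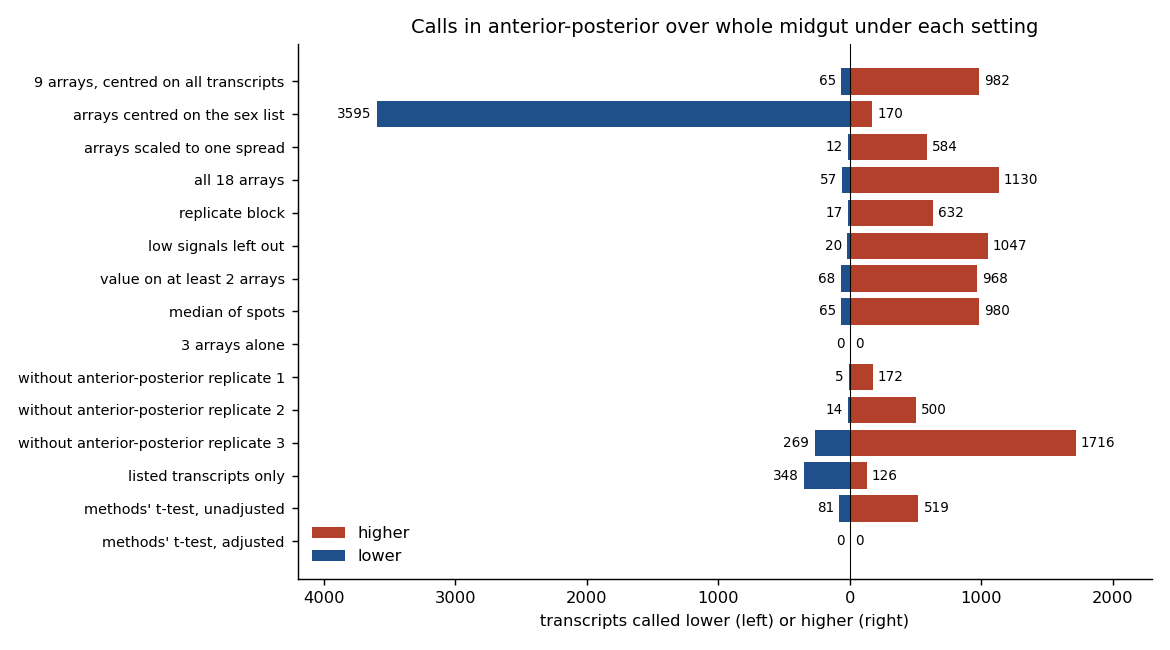
Number of transcripts called lower (left) and higher (right) in anterior-posterior over whole midgut, with one bar for each setting of the fit. The 982 and 65 calls centred on all transcripts become 170 and 3595 centred on the sex list, and none with the 3 arrays alone.

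The transcripts with the highest means carried a mixture of annotations. EN005118, which has no homology text, was at 2.54, 3.13 and 2.85 on replicates 1 to 3, with a mean of 2.84 ± 0.30 (SD, n = 3 arrays), the highest of all called transcripts. Its mean before centring was 0.98. EN024807, also without text, followed at 3.15, 2.50 and 2.40. The highest annotated transcript was EN010533, a kinase, at 2.88, 1.95 and 3.14 (limma adjusted p = 0.00241), and it was called higher under both centres.

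The next annotated transcripts had other roles. EN018500, a nucleosome assembly protein, was at 2.94, 2.15 and 2.38. EN022059, with a DnaJ domain as found in co-chaperones of heat shock proteins, was at 2.63, 2.36 and 2.45. The guanine nucleotide exchange factor EN011952 was at 2.82, 2.43 and 2.14. EN021639, geranylgeranyl pyrophosphate synthetase of the isoprenoid pathway, was at 2.60, 2.43 and 2.31. All of these were called under both centres, with adjusted p between 0.00241 and 0.00297 under the first, and no array of theirs lay under 2.1. The other 5 of the top 10 were ribosomal proteins, proteases or peritrophins and are given with their groups.

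**Figure D3:**
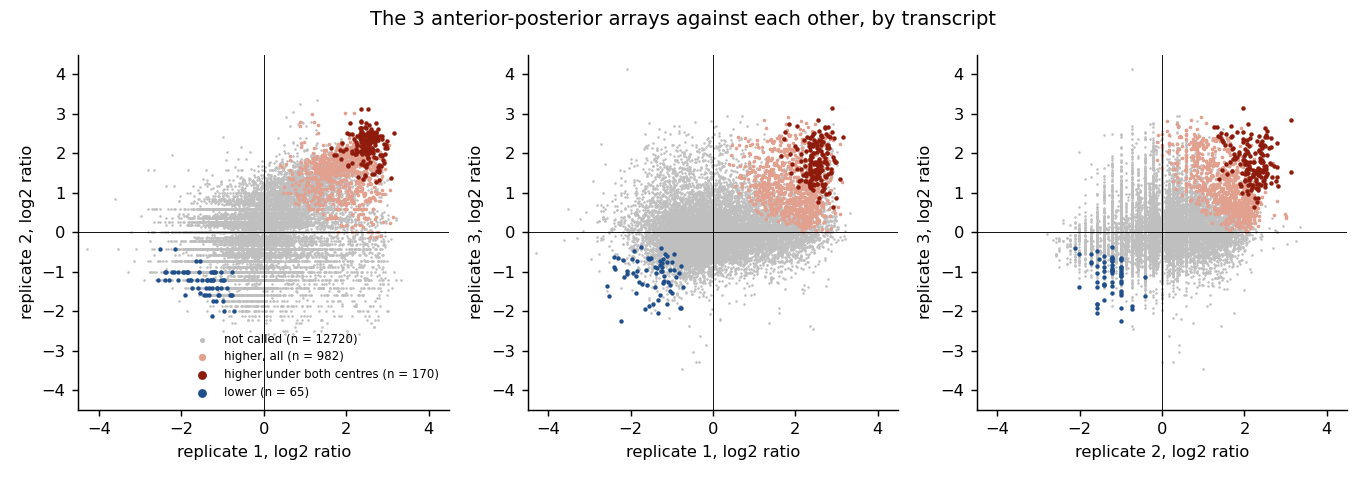
Centred log2 ratio of each of the 13767 transcripts on one anterior-posterior array against another, with transcripts called higher (982), higher under both centres (170) and lower (65) in colour. The lines of points on replicate 2 are ratios of small whole numbers, and replicate 3 spreads differently from replicates 1 and 2.

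At the low end, 2 of the 65 transcripts had homology text. EN012804, a cuticle protein, was at -0.72, -2.00 and -1.38 (adjusted p = 0.0199), below all of its anterior and posterior-posterior arrays, which lay between -0.48 and 0.54. The zinc finger protein EN026465 was at -2.53, -0.41 and -1.61 (adjusted p = 0.0483) and overlapped with those arrays. The lowest means of all belonged to EN016735, at -2.22, -0.996 and -2.26, and EN012544, at -2.57, -1.22 and -1.36, neither of which has homology text. Each of these 4 calls was lost without some replicate. The adjusted p was 0.16 for EN012804 without replicate 2, 0.311 and 0.0908 for EN026465 without replicates 1 and 3, 0.16 and 0.0732 for EN016735 without replicates 1 and 3, and 0.208 and 0.0605 for EN012544 without replicates 1 and 2.

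Digestive enzymes of proteins included some of the highest ratios. Trypsin 3 (EN006721), a trypsin of the midgut trypsin gene cluster, was at 2.35, 2.65 and 2.15, with a limma adjusted p of 0.00245. Trypsin 4 (EN018384) was at 2.35, 2.36 and 2.08 (adjusted p = 0.00245). Both were called higher under both centres, and no value of theirs lay below 2.08. Trypsin 7 (EN018316) was lower on replicate 1, at 1.22, 2.14 and 1.66, and was called with all transcripts as the centre (adjusted p = 0.0154) and not with the sex list (adjusted p = 0.142) or without replicate 1 (adjusted p = 0.0568) or 2 (adjusted p = 0.109). Trypsin 5 (EN018317) was at 2.25, 0.22 and -0.65, which spans both directions, and was not called (adjusted p = 0.457).

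Of the carboxypeptidases, which remove amino acids from the end of a peptide chain, EN021052 was the steadiest transcript of the named ones. It was at 2.33, 2.40 and 2.26, with an SD of 0.069, and was called under both centres (adjusted p = 0.00241). EN020553 was at 2.64, 1.92 and 0.71 and was called only with all transcripts as the centre (adjusted p = 0.0199, against 0.0776), and not without replicate 1 (adjusted p = 0.176) or 2 (adjusted p = 0.103). Of 20 tested exopeptidases, 5 were called higher and none lower, or 25% against 20.6% of the 1618 annotated transcripts in the sex or cardia lists, among which the group lists were drawn. Under both centres 81 of the 1618 were called higher, and with the sex list as the centre 203 were called lower. The lowest exopeptidase was the Xaa-Pro dipeptidase EN023561, at -1.94, 0.00 and -0.36, which was called only with the sex list as the centre, as lower (-1.65, adjusted p = 0.0386).

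Serine proteases as a group did not stand above the other annotated transcripts. The list, which holds enzymes annotated as serine protease without the trypsins named above, had 7 of 36 members called higher and none lower (19.4%), and a median of 0.25 against 0.70 for annotated transcripts. The highest was EN013929, at 2.62, 2.37 and 2.21, which was called under both centres (adjusted p = 0.00303). The lowest, EN022294 of the trypsin family, was at -0.77, -1.59 and -0.23, and was not called (adjusted p = 0.123), but was called lower centred on the sex list (-1.74, adjusted p = 0.0303). Centred on the sex list, the group had 1 member called higher and 6 lower.

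The sugar digestion list holds enzymes that split sugars, among them maltases and also trehalases, which act on trehalose. Of 10 tested, 4 were called higher (40%), namely 2 maltases, an alpha glucosidase and a trehalase, and their median was 1.20. The maltase EN029512 was highest, at 2.50, 2.48 and 1.58 (adjusted p = 0.00357), and the only one called under both centres. The other trehalase, EN028617, was lowest, at -1.09, 0.17 and -0.02. The median of the group differed between arrays, at 2.15, 1.72 and 0.38, and its distance above the annotated median was 1.09, 0.86 and 0.25 on replicates 1 to 3. The neighbouring compartments also had group medians above 0, at 1.35 on the anterior and 0.83 on the posterior-posterior arrays.

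Lipases had a lower median than annotated transcripts, at -0.29, with 3 of 9 called higher (33.3%, against 20.6% of annotated transcripts). With the sex list as the centre, 1 was called higher and 3 lower. The gastric lipase homolog EN014953 was at 2.43, 2.34 and 1.52 (adjusted p = 0.00563) and was called under both centres, but not without replicate 1 (adjusted p = 0.0581). EN014736, with the same homology text, was at -0.81, -1.87 and -0.99 (adjusted p = 0.0604) and was not called, but was called lower with the sex list (-2.10, adjusted p = 0.0303). The annotation alone thus did not say which way a lipase went.

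Peritrophins are chitin binding proteins that cross-link the chitin of the peritrophic matrix. The list of 21 tested transcripts holds chitin binding proteins, peritrophins and 2 chitinases, which degrade chitin and were not called. Of the 21, 5 were called higher (23.8%), and 3 of these under both centres. EN020485, with peritrophin A domains, was at 2.53, 2.43 and 2.20 (adjusted p = 0.00329). The peritrophin EN023523 was at 2.39, 2.54 and 1.96 (adjusted p = 0.00245), although a spot of it had a few-unit ratio on 2 arrays. A second transcript annotated as peritrophin, EN013392, was at 2.18, 0.83 and -1.54, with an SD of 1.88, and was called only without replicate 3, as higher (adjusted p = 0.048). The lowest of the group, EN022855, was at -0.54, -0.29 and -1.49, and was called lower with the sex list alone (-1.65, adjusted p = 0.0303).

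Among transport proteins, 8 of 59 were called higher (13.6%), under the 20.6% of annotated transcripts. With the sex list as the centre, 2 were called higher and 11 lower. The highest was EN010934, annotated as a cotransporter, at 2.00, 2.11 and 2.17 (adjusted p = 0.00357). Its 3 values lay above all 6 anterior and posterior-posterior arrays, of which the highest was 1.81. A GDP-fucose transporter, EN014820, was the other one called under both centres, at 2.37, 2.32 and 1.11. The zinc transporter EN026373 was lowest, at -1.55, -0.15 and -1.71, and was not called (adjusted p = 0.142), but was called lower with the sex list (-2.02, adjusted p = 0.0303).

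The V-ATPase pumps protons across membranes and energizes transport in the mosquito gut. Of 13 tested subunits, 4 were called higher (30.8%), and none was called under both centres. Subunit G (EN013212) was highest, at 1.56, 1.31 and 2.39 (adjusted p = 0.00461), and a second transcript annotated as subunit G, EN018502, was at -1.08, 0.37 and 0.36. No transcript of the 12 aquaporins and carbonic anhydrases was called in either direction with all transcripts as the centre, while 3 were higher and 1 lower by 2-fold at an unadjusted p under 0.05. Centred on the sex list, 2 were called lower. The carbonic anhydrase EN011013 was at 2.06, 1.93 and 0.02 (adjusted p = 0.0621), and without replicate 3 its adjusted p was 0.0094. The aquaporin EN017068 was at -1.43, -1.11 and -1.40 (adjusted p = 0.0596), the lowest of the group on average and low on every array, and it was called lower with the sex list (-2.19, adjusted p = 0.0303).

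The largest share of any group was that of the cytosolic ribosomal proteins, the structural proteins of the ribosome. Of 49 tested, 36 were called higher (73.5%), 15 of them under both centres, and none was called lower. Their median was 2.33, 2.07 and 0.80 on replicates 1 to 3, which lay 1.27, 1.21 and 0.66 above the annotated median on the same array. The ribosomal group was the highest of the 24 lists on replicates 2 and 3, and on replicate 1 only a salivary gland list of 2 transcripts was above it. EN011784, homologous to ribosomal protein L17/L23, was at 2.37, 2.64 and 2.38 (adjusted p = 0.00241), and EN025897, homologous to S5, was at 2.76, 2.40 and 2.00 (adjusted p = 0.00241). EN023420, homologous to L10, was at -0.03, -0.996 and -0.73 and was the only one with a negative mean. Centred on the sex list, the group had a median of 0.85, with 15 called higher and EN023420 called lower (-1.46, adjusted p = 0.0303). With all transcripts as the centre, the median of the member means was 1.73 here. It was 1.25 on the anterior and 1.14 on the posterior-posterior arrays, beside 0.58 and 0.35 for annotated transcripts. A high ribosomal median was thus not particular to this compartment.

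Subunits of the respiratory chain and the mitochondrial ATP synthase, which make ATP, had 16 of 40 members called higher (40%) and none lower. Their median of 1.26 came from 2.02, 1.52 and 0.15 on the 3 arrays, and on replicate 3 it lay 0.02 from the annotated median. EN019912, cytochrome c oxidase polypeptide VIIa, was highest at 2.26, 2.06 and 2.06 (adjusted p = 0.00526). An ATP synthase d chain, EN012669, was the other member called under both centres, at 2.37, 2.03 and 1.33. Centred on the sex list, 2 members were called higher and 2 lower. With all transcripts as the centre, the group median was 0.89 on the anterior and 0.83 on the posterior-posterior arrays.

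Detoxification enzymes were described as 2 lists. Of 36 cytochrome P450 enzymes, which oxidize foreign and endogenous compounds, 8 were called higher (22.2%). Under both centres it was 5 of 36, beside 81 of the 1618 annotated transcripts. With the sex list as the centre, 5 were called higher and 6 lower. EN026749 was highest, at 2.71, 2.38 and 1.89 (adjusted p = 0.00245), and its 3 values were above all 6 arrays of the neighbouring compartments. Of 25 glutathione S transferases and UDP-glucuronosyltransferases, which conjugate such compounds, 6 were called higher (24%). With the sex list as the centre, 1 was called higher and 2 lower. The glutathione S transferase EN018735 was at 3.09, 1.38 and 1.35 (adjusted p = 0.00716), with replicate 1 far above the others, and was not called without it (adjusted p = 0.081).

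Nitric oxide synthase (EN019316), the enzyme that makes nitric oxide and is known to limit Plasmodium in Anopheles, was the immune transcript with the highest mean. It was at 2.52, 1.95 and 2.29 and was called higher under both centres (adjusted p = 0.00266 and 0.0303). On the anterior arrays it was at 0.69, 1.27 and -0.22, and on the posterior-posterior arrays at -0.01, 0.24 and 0.43. The 3 anterior-posterior values were above all 6 of these. The difference from the posterior-posterior ratio was 2.03 (unadjusted p = 0.000471, adjusted p = 0.593) and that from the anterior ratio was 1.67 (unadjusted p = 0.0022), and neither passed the limma adjustment. A second transcript annotated as nitric oxide synthase, EN009330, was at 0.585, -0.509 and -0.014. It was called under neither centre (limma adjusted p = 0.973 and 0.0811).

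Of 50 tested pattern recognition proteins, 6 were called higher (12%, against 20.6% of annotated transcripts) and none lower. With the sex list as the centre, 1 was called higher and 7 lower. The peptidoglycan recognition protein PGRPS3 (EN012979), of a family that binds bacterial cell walls, was at 2.23, 2.11 and 1.68 (adjusted p = 0.00357) and was the only one called under both centres. The fibrinogen domain protein FBN8 (EN011252) was at 2.11, 0.84 and 1.77 (adjusted p = 0.0076), above its anterior and posterior-posterior values of -0.13 to 0.58. However, a spot of FBN8 had a few-unit ratio on 2 arrays, and the call was lost without replicate 1 (adjusted p = 0.0841). FBN9 (EN011248) and FBN7 (EN008282) were not called, with means of 0.27 and 0.22.

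Thioester proteins are complement-like factors, of which TEP1 binds ookinetes. TEP1 (EN016857) was at 0.46, 1.08 and 0.96, positive on every array, and was not called (mean 0.84, adjusted p = 0.107). EN021166 was at 1.45, 1.66 and 1.46 (adjusted p = 0.0163) and was called with all transcripts as the centre, and not without replicate 1 (adjusted p = 0.0892) or 2 (adjusted p = 0.0857). Its homology text reads TEP4 in one list of the supplement and C-type lectin CTL4 in another, so that its name is uncertain. Another transcript annotated as TEP4, EN021216, was at 0.49, 0.64 and 0.14 and was not called (limma adjusted p = 0.359). TEP16 (EN021282) and EN016283, annotated as TEP6, had means of 0.05 and 0.11 and were not called. CTL4 (EN021138) and CTLMA2 (EN020902), lectins that protect ookinetes in Anopheles, had means of -0.25 and -0.27 and were not called, but CTLMA2 was called lower with the sex list (-1.15, adjusted p = 0.0374). CTLSE1 (EN005322) was lowest of the recognition proteins, at -2.26, -0.996 and 0.17. It was not called with all 3 arrays, but was called lower with the sex list (-1.91, adjusted p = 0.0343) and without replicate 3 (-1.63, adjusted p = 0.0222).

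Antimicrobial peptides and lysozymes, which kill bacteria and serve here as markers of the cardia, varied between the arrays. None of 8 was called with limma, and 3 were higher by 2-fold at an unadjusted p under 0.05. Cecropin CEC3 (EN011995) was at 2.35, 1.43 and -2.37, gambicin (EN013255) at 2.42, 1.86 and -0.19, and the lysozyme EN025070 at 2.43, -0.71 and -2.46. These transcripts were high on replicate 1 and low on replicate 3. The replicate 1 value of cecropin CEC3 was the ratio of 1.001 that 28 transcripts shared on that array, as described below. Defensin 1 (EN015621) was at 1.73, 1.12 and 0.54 (adjusted p = 0.0546), and cecropin CEC2 (EN011963) and the lysozyme EN018395 had means of 0.19 and 0.12. Without replicate 3, limma called gambicin, cecropin CEC3, defensin 1 and the lysozyme EN018439 higher (adjusted p between 0.00765 and 0.0436), and without replicate 1 none of them (adjusted p between 0.298 and 0.757).

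**Figure D4:**
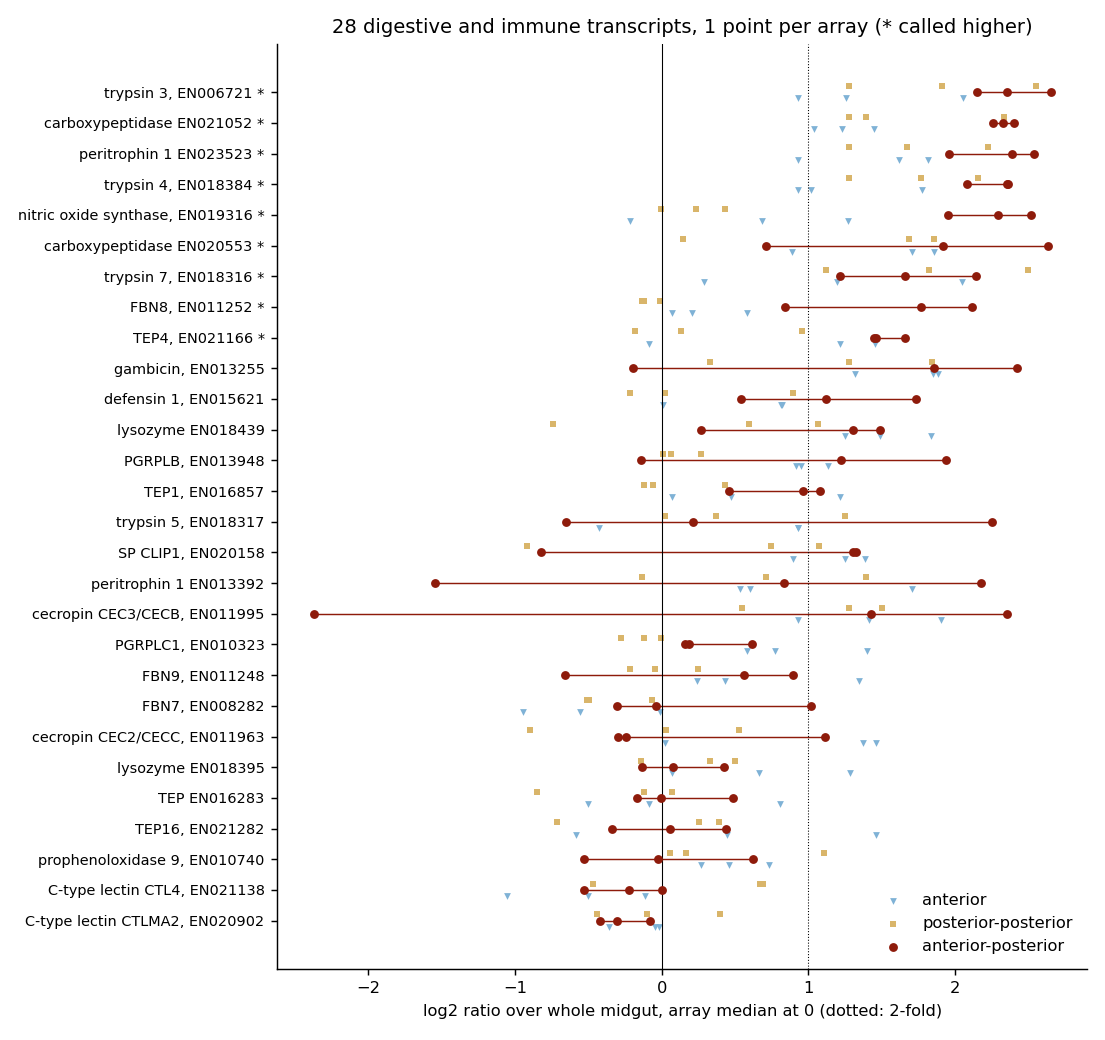
Centred log2 ratio of 28 digestive and immune transcripts on the 3 anterior-posterior arrays (joined circles), the 3 anterior arrays (triangles) and the 3 posterior-posterior arrays (squares), all over whole midgut. Trypsins 3 and 4 and the carboxypeptidase EN021052 stay above 2 on all 3 anterior-posterior arrays, nitric oxide synthase and FBN8 lie above both neighbouring compartments, and cecropin CEC3 runs from 2.35 to -2.37.

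Of the immune proteases, serpins, prophenoloxidases and nitric oxide synthase, 3 of 19 were called higher (15.8%), the others being 2 transcripts of the serpin SPI1B. With the sex list as the centre, 1 was called higher and 4 lower. Prophenoloxidases, the melanization enzymes of hemocytes, were not called with all transcripts as the centre. PPO1 (EN016955) was lowest of the list, at -0.96, -0.87 and -0.65 (adjusted p = 0.0878), and was called lower with the sex list (-1.71, adjusted p = 0.0303), and PPO9 (EN010740) had a mean of 0.03. The CLIP domain serine protease SP CLIP1 (EN020158) was at 1.32, 1.31 and -0.82, and was not called. The PGRP transcripts PGRPLB (EN013948) and PGRPLC1 (EN010323) had means of 1.01 and 0.32 and were not called, but PGRPLB was called higher without replicate 3 (adjusted p = 0.0109). Leucine rich repeat proteins (1 of 16), zinc finger proteins (5 of 55) and the protein secretion machinery (1 of 12) were called higher at 6.25%, 9.09% and 8.33%. With the sex list as the centre, 0, 1 and 0 of these were called higher and 5, 7 and 0 lower.

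**Figure D5:**
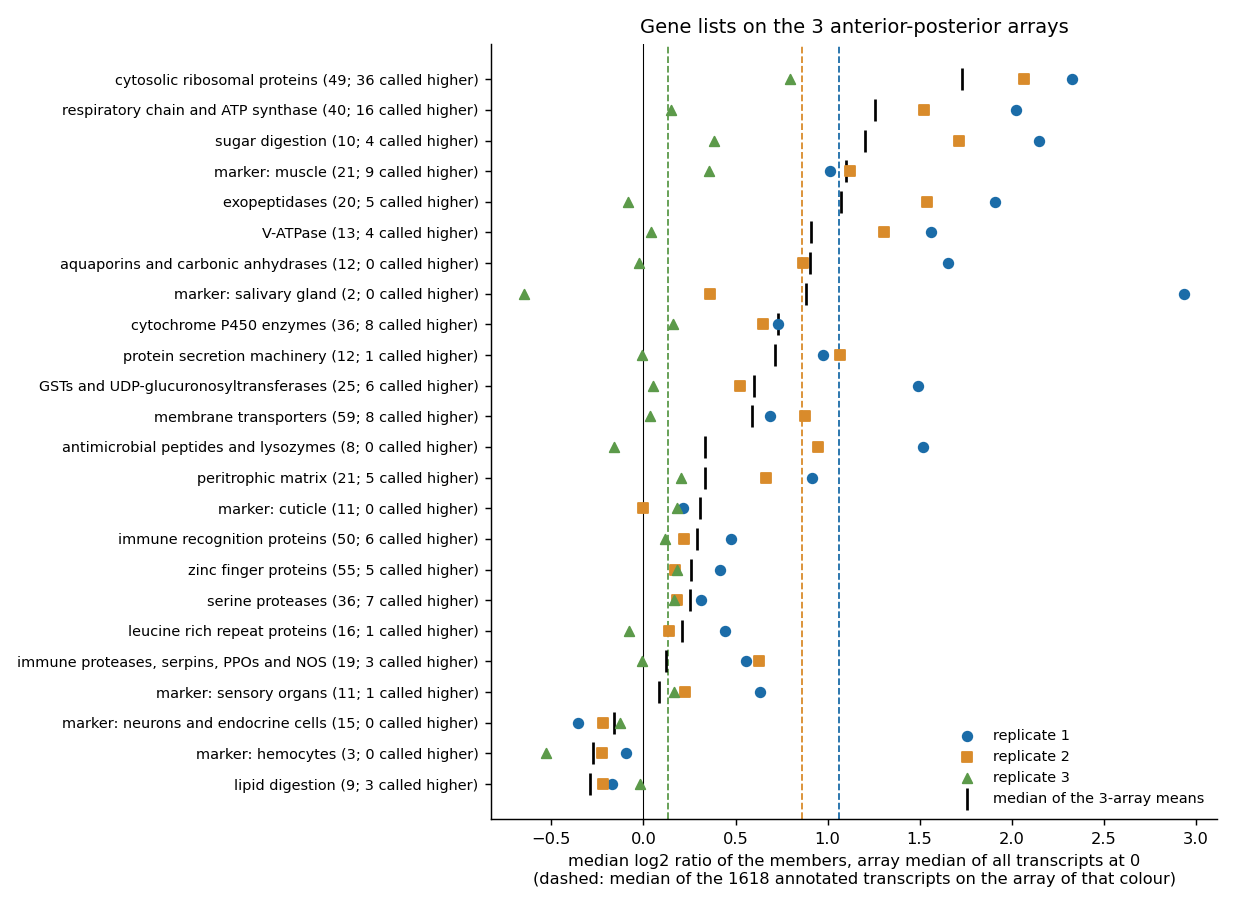
Median centred log2 ratio of 24 gene lists on each anterior-posterior array, with the number of members tested and called higher, and dashed lines at the median of the 1618 annotated transcripts (1.06, 0.86 and 0.13). Cytosolic ribosomal proteins lie right of the dashed line on all 3 arrays, and the lists are drawn together near 0 on replicate 3.

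Of the fixed enzymes of the posterior midgut, the 4 trypsins and 2 carboxypeptidases above, 5 were called higher. Under both centres only trypsins 3 and 4 and EN021052 were. The serine protease list, which lacks these trypsins, and the exopeptidase list had 19.4% and 25% called higher, beside 20.6% of annotated transcripts. None of the cardia markers was called with all 3 arrays. Without replicate 3, gambicin, cecropin CEC3, defensin 1 and the lysozyme EN018439 were called higher. Markers of tissues that surround or adhere to the gut were measured beside these groups. Muscle transcripts (myosins and tropomyosins) had 9 of 21 members called higher (42.9%), with array medians of 1.01, 1.12 and 0.36. The myosin EN018155 was at 2.42, 1.70 and 1.55 (adjusted p = 0.00357) and was the only one called under both centres. The 2 tested salivary gland transcripts, SG2 (EN010054) at 3.08, -0.18 and -0.11 and SG3 (EN009988) at 2.80, 0.90 and -1.18, were highest on replicate 1. The part of muscle and salivary gland RNA in the other results was not tested. Of 15 neuronal and endocrine transcripts none was called with all transcripts as the centre and 1 was lower by 2-fold at an unadjusted p under 0.05. Their highest mean was that of neuropeptide F (EN020873), at 2.19, 0.87 and -0.28, and the lowest that of the synaptic vesicle protein EN013027, at -1.62, -1.41 and -0.36. Without replicate 3 the first was called higher (adjusted p = 0.0331) and the second lower (adjusted p = 0.023), and the second was also called lower with the sex list (-2.01, adjusted p = 0.0303). Of 11 transcripts of sensory organs, an opsin (EN001159) was called with all transcripts as the centre, at 1.84, 1.89 and 2.19. The list of 11 holds 2 coatomer subunits, which matched it through the word xenopsin. With all transcripts as the centre, cuticle (0 higher and 1 lower of 11) and hemocyte lists (none of 3) had low medians of 0.31 and -0.27. With the sex list as the centre, 2 cuticle, 2 hemocyte, 5 neuronal and endocrine, 1 muscle and 1 sensory organ transcripts were called lower. Of these lists, only muscle then had a transcript called higher.

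A single ratio recurred on several arrays. On anterior-posterior replicate 1, 28 transcripts shared 1 ratio of 1.001, which became 2.35 after centring, and 23 of these were called higher, among them trypsins 3 and 4, and 4 were ribosomal. On anterior-posterior replicate 2, 88 shared the ratio 1 (1.59 after centring), which is a few-unit ratio by definition, and 22 were called higher. On anterior replicate 2, 100 transcripts shared the ratio 1 (0.93 after centring), 18 of them ribosomal, and on posterior-posterior replicate 1, 79 shared the ratio 0.999 (1.28 after centring), 20 of them ribosomal. Such transcripts cannot be ordered on these arrays. Without intensities the source of the shared value was not tested.

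The compartment was next set against its neighbours, which asks whether the front of the posterior midgut differed from the tissue before or behind it. With limma no transcript was called in either contrast, which is 0% of those tested. At an unadjusted p under 0.05, 795 transcripts (5.77%) differed between anterior-posterior and posterior-posterior and 618 (4.49%) between anterior-posterior and anterior, and the smallest adjusted p was 0.593 and 0.319. The 3 comparisons shared the reference tissue, and their values are set side by side without a test of likeness.

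The 170 called under both centres had a median of 2.13 on the anterior-posterior arrays, 1.31 on the anterior and 1.25 on the posterior-posterior arrays. For 44 of the 170 (25.9%), the 3 anterior-posterior values lay above all 6 values of the neighbours, which is a description, since the 170 were chosen for high anterior-posterior values. Over all transcripts with 9 values, this held for 332 of 13404 (2.48%), and 81 (0.604%) lay below all 6.

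For trypsin 3 and the carboxypeptidase EN021052 the mean centred ratio was above 0 in all 3 compartments. The order of the compartments depends on the centre of each array, and trypsin 3 was at the shared ratio on 1 array of each compartment and EN021052 on 1 posterior-posterior array. Trypsin 3 (EN006721) had a mean of 1.41 in the anterior and 1.91 in the posterior-posterior compartment, and 2.38 in the anterior-posterior compartment (difference from posterior-posterior 0.47, unadjusted p = 0.32). EN021052 had means of 1.24, 1.67 and 2.33 in that order (difference 0.66, unadjusted p = 0.129). Trypsin 7 (EN018316) had the higher mean in the posterior-posterior compartment, at 1.81 against 1.67 (difference -0.14, unadjusted p = 0.792). None of these differences passed the test.

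Larger differences between compartments did not pass the adjustment either. EN012886 and EN012822 were chosen after their values were seen, as were EN009330, EN012669, EN014820, EN018502 and EN021216 above. The kinase EN010533 had means of 0.16 in the anterior and 1.33 in the posterior-posterior compartment against 2.66 (difference from anterior 2.50, unadjusted p = 7.14e-05, adjusted p = 0.319). The nucleosome assembly protein EN018500 had 0.89 and 0.35 against 2.49 (difference from posterior-posterior 2.14, unadjusted p = 0.000347, adjusted p = 0.593). EN012886, homologous to the serine protease gastrulation defective of Drosophila, had -0.24 and -0.55 against 1.6 (difference from posterior-posterior 2.15, unadjusted p = 0.000337). The smallest p of either contrast was that of EN012822, which has no homology text, with a difference of 3.65 ± 0.61 (limma SE) from the anterior ratio (unadjusted p = 3.92e-05, adjusted p = 0.319).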

How the data were processed

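RNA was extracted with one of a pair of commercial kits, amplified and labelled by the authors with an Agilent linear method, and hybridised to 60-mer oligonucleotide arrays, which were scanned and read with GenePix Pro 6.0. The deposited values are log2 ratios of Cy5 over Cy3. The authors' methods name a signal threshold of 100 units, LOWESS and t-tests, but the deposited ratios showed neither a threshold nor a normalization. The depth of an array is unknown, and the number of arrays limits the precision.

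From 15495 features, a placeholder (the log2 of 100000) was set missing, spots of 1156 transcripts were averaged, and each array was centred on its median. The 430 transcripts with fewer than 3 values were left out. limma 3.58.1 (R 4.3.3; tables by Python 3.11 with pandas 2.3.3 and NumPy 2.4.6) fitted group means over 9 arrays, with contrasts against the neighbouring compartments. All p-values were adjusted over all tested transcripts, and the fit was tested on simulated data. P-values measure the spread between arrays only. The number of midguts pooled is not given in the sources used here.

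Named transcripts were the 10 called with the largest and lowest means among those with homology text and the same sign on 3 arrays, the 2 highest and 2 lowest of all, 28 fixed digestive and immune transcripts, and the highest and lowest of each list. Homology text (1839 tested transcripts) came from the supplement, of which no value was used, and no identifier matched the RefSeq table. Members and lists were chosen with earlier results of these data known. Alternatives were the centre, the scale, the arrays in the fit, the replicate number as a block, few-unit ratios, blank values, the spot summary, left-out arrays and the methods' t-test.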

Additional observations from a re-analysis of the deposited data

How the results depend on the processing

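Counts of calls against the whole midgut (982 higher, 65 lower) moved with nearly every choice. They were 170 and 3595 with arrays centred on the sex list, 584 and 12 with arrays scaled to one spread, 1047 and 20 with few-unit ratios left out, 519 and 81 by the methods' t-test before adjustment, and 0 by it after adjustment and 0 with the 3 arrays alone. Leaving out 1 anterior-posterior array gave 172 to 1716 higher and 5 to 269 lower, and in the same order of replicates left out, 1 to 3, the higher calls were 172, 500 and 1716. Chosen after seeing the data, leaving out 1 posterior-posterior or anterior array gave 720 to 1024 higher and 31 to 79 lower (lower calls of 38 without posterior-posterior replicate 1, 31 without anterior replicate 1 and 40 without anterior replicate 2), and the 2613 listed transcripts alone, centred on the sex list, gave 126 and 348. Fits with 18 arrays, with 2 of 3 values and with the median of spots kept both counts within 1.5 times. Of the 170 called under both centres, 113 were called without replicate 1, 157 without replicate 2 and all 170 without replicate 3. Both contrasts between compartments gave 0 calls under every alternative run for them, which leaves out the 3 arrays alone and the t-test. With the replicate block the counts were 632 and 17. Deviations of same-numbered arrays correlated at -0.361 to 0.124, and those of differently numbered arrays at -0.231 to 0.313. These values show no pairing by number, but they cannot exclude arrays that share mosquitoes, RNA or a hybridisation.

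Of 69 named transcripts, 34 were called, and 28 of these stayed called centred on the sex list and none with the 3 arrays alone. Of those not called, 11 gained a call with the sex list, 10 without replicate 3 and 3 with 18 arrays. Transcripts not called that changed sign centred on the sex list were EN008282 (-0.66), EN009988 (-0.04), EN010323 (-0.56), EN010740 (-0.85), EN011248 (-0.61), EN011963 (-0.69), EN011995 (-0.41), EN013392 (-0.39), EN016283 (-0.78), EN016857 (-0.044), EN018317 (-0.27), EN018395 (-0.75), EN020158 (-0.28) and EN021282 (-0.83). With scaled arrays EN010740 (-0.071), EN011995 (-0.16) and EN021282 (-0.039) did. Leaving out 1 anterior-posterior array in turn gave means on both sides of 0 for EN008282 (-0.17 to 0.49), EN009988 (-0.14 to 1.85), EN010054 (-0.15 to 1.482), EN010740 (-0.28 to 0.30), EN011248 (-0.047 to 0.73), EN011963 (-0.27 to 0.43), EN011995 (-0.47 to 1.89), EN013392 (-0.35 to 1.51), EN016283 (-0.086 to 0.24), EN018317 (-0.22 to 1.23), EN018395 (-0.025 to 0.25), EN021282 (-0.14 to 0.25), EN025070 (-1.59 to 0.86) and EN028617 (-0.56 to 0.074).

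Relative to annotated transcripts, the medians of 6 of 24 lists moved by more than their spread between arrays with few-unit ratios left out, 4 without replicate 3, 2 without replicate 1 and 1 without replicate 2. The median of the ribosomal list lay 0.84 to 1.22 above that of annotated transcripts under all alternatives run for it. The cause of these changes was not tested. Without intensities, the signal over background that limits each ratio is unknown.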

Other observations

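A further 4 groups were formed after their values were seen, and are given as counts without a test. Of 11 tRNA synthetases, which charge tRNAs with amino acids, 5 were called higher (45.5%, against 20.6% of annotated transcripts) and 3 of these under both centres, with a median log2 ratio of 1.29. Of 14 proteasome subunits, which degrade proteins tagged with ubiquitin, 5 were called higher (35.7%), 3 under both centres, with a median of 1.24. Of 13 peroxiredoxins, thioredoxins and glutathione peroxidases, which reduce peroxides and disulfides, 4 were called higher (30.8%), 3 under both centres, with a median of 1.01. Of 8 mitochondrial ribosomal proteins, 3 were called higher (37.5%), 1 under both centres, with a median of 1.14. No member of these groups was called lower. In the same order, the group medians were 1.219, 1.069, 1.204 and 0.871 on the anterior arrays. On the posterior-posterior arrays they were 0.825, 0.819, 0.906 and 0.731.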
